A study of Mus musculus with 6 samples.

Results

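Prg2, Epx, Cpa3, Gzmb, Mcpt8, Ms4a2, Fcer1a, Fcer1g, Hdc and Il1rl1 are genes that eosinophils, basophils and mast cells use, and their RNA levels were examined in LSKs from irradiated Tespa1+/+ and Tespa1-/- mice. LSKs are bone marrow cells without lineage antigens that carry Sca-1 and c-Kit, a fraction with the hematopoietic stem and multipotent progenitor cells. The 10 genes were taken by name from the 55487 genes of the expression table, and all 10 were present and passed the filter on low counts, Epx only through the Tespa1-/- libraries, where it was high, and Gzmb only through the Tespa1+/+ libraries. Prg2 and Epx encode eosinophil granule proteins, Cpa3, Gzmb and Mcpt8 encode granule proteases, Ms4a2, Fcer1a and Fcer1g encode the subunits of the high-affinity IgE receptor, Hdc encodes the enzyme that makes histamine, and Il1rl1 encodes the receptor of IL-33.

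The study compared 3 Tespa1+/+ libraries with 3 Tespa1-/- libraries. All libraries were from LSKs of male mice of 8 to 10 weeks that, per the methods of the study, had received 5.0 Gy of total body irradiation, with RNA taken on day 13. The Tespa1-/- mice carried the B6.129S-Tespa1tm1Smoc allele in all cells and had been backcrossed to C57BL/6 mice for more than 6 generations, and the Tespa1+/+ mice were littermates per the labels. No unirradiated libraries were analysed here, so both groups share the irradiation. Whether a library came from 1 mouse or from several was not given in the sources used here, so that p-values measure the spread between these libraries, which may be in part technical.

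Eosinophils, basophils and mast cells are granulocytes of allergic and antiparasitic responses that all arise in the bone marrow, mast cells completing their maturation in tissues. Granule transcripts of these lineages can be found in precursors, before the mature cell is recognizable. Basophils and mast cells share the IgE receptor, which is built from an IgE-binding alpha chain, a signal-amplifying beta chain and a gamma chain that many other Fc receptors also use. GATA1 and GATA2 promote all these lineages, whereas C/EBP factors promote granulocytes, including neutrophils and eosinophils.

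The bases before the transcription start are given for Epx, which rose, and Ms4a2 and Cpa3, which were lower, Cpa3 under 1.5-fold. They serve to show GATA motifs, as GATA factors are known regulators of these lineages. The 3 genes were chosen with their values known, and no window was given for Prg2. Each window holds the 250 bases upstream of the start in RefSeq on GRCm38.p6, on the strand of the gene and 5′ to 3′. Capitals mark each match to GATAA, the core of the GATA motif, or to TTATC, the same motif on the other strand. The Epx window was chr11:87875537-87875786 (minus strand), the Ms4a2 window chr19:11623720-11623969 (minus strand) and the Cpa3 window chr3:20242182-20242431 (minus strand).
Epx: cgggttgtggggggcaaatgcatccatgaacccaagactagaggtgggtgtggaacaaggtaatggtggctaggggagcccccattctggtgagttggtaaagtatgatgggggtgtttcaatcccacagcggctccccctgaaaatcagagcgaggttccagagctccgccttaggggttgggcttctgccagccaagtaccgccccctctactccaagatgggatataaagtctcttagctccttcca
Ms4a2: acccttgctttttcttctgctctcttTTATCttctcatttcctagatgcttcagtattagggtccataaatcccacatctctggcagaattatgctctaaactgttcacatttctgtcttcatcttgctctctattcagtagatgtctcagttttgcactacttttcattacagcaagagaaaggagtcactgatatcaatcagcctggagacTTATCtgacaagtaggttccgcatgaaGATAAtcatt
Cpa3: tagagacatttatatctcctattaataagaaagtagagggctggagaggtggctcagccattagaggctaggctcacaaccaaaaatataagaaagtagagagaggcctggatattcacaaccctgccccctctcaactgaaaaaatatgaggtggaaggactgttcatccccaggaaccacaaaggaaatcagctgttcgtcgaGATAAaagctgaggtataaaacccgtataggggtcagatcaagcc
The Epx window held no match, whereas the Ms4a2 window held 3, which began 224, 37 and 10 bases upstream of the start, and the Cpa3 window held 1, which began 45 bases upstream. A window was given for 9 of the 10 genes, and it was searched on both strands in each. GATAA was found in 4 genes, Cpa3, Ms4a2, Fcer1a and Il1rl1, the last with 2 alternative starts, and not in Epx, Gzmb, Mcpt8, Fcer1g or Hdc. In the order named, log2 fold changes were -0.42, -1.33, 0.76 and -0.57 with GATAA and 3.19, -0.56, 0.58, 0.35 and -0.074 without it. Of all 32851 RefSeq windows of this length, 22.6% held GATAA. TTGCNNAA, a C/EBP motif, was found in 2 genes (Fcer1a and Il1rl1) against 9.56% of all windows, and GAGGAA, a PU.1 motif, in 2 genes (Mcpt8 and Fcer1a) against 23.3%. These matches describe the letters of the windows and not the binding of a factor, and their link to the fold changes was not tested.

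The libraries held between 12856630 and 30576981 counted fragments. Tespa1, the targeted gene, had 34.4 ± 1.62 CPM in Tespa1+/+ and 14.6 ± 0.634 CPM in Tespa1-/- LSKs (SD, n = 3), so its RNA was reduced but still counted (log2 fold change -1.23, edgeR adjusted p 7.0e-06). CPM are counts scaled to a common library total, here with TMM factors, which correct for differences in composition. Kit, 1 of the sort markers, was 333 ± 9.79 CPM in Tespa1+/+ and 170 ± 6.13 CPM in Tespa1-/- LSKs (SD, n = 3), and Ly6a, which encodes Sca-1, was 50.5 ± 11.6 and 40.4 ± 3.36 CPM. Cd3e, a depleted lineage antigen, had 4 to 8 counts in Tespa1+/+ libraries and 0 in all Tespa1-/- libraries. Of a list of 10 neutrophil genes 9 passed the filter, 5 of them, such as Ngp, only through the Tespa1-/- libraries, where they were high. The direction of these 5 thus carries no weight of its own. The other 4 passed the filter in both genotypes and were called higher by the rule given below, against 14.0% of all genes tested. Among these 4 were Lcn2 (log2 fold change 3.03), S100a9 (7.07) and S100a8 (5.0). The 5 were called higher as well, among them Ngp (8.14). The summed level of the list was 21.4 to 24.3 CPM in Tespa1+/+ and 486 to 516 CPM in Tespa1-/- libraries. Ly6g had 0 counts in all Tespa1+/+ and 4 to 8 counts in Tespa1-/- libraries. The sum of FPKM values was 350333 to 351987 in Tespa1+/+ and 432222 to 433536 in Tespa1-/- libraries, which shows that a larger share of the Tespa1-/- counts fell on short genes.

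Genotypes were compared with edgeR (quasi-likelihood test on the counts of all 15332 genes tested, Benjamini-Hochberg adjusted p), and a gene was called when the adjusted p was under 0.05 and the fold over 1.5. Of the 10 genes, Prg2 and Epx were called higher and Ms4a2 was called lower in Tespa1-/- LSKs. Over all genes tested, 33.3% were called, 14.0% higher and 19.2% lower, so 3 called genes of 10 is near this background. A further 4 genes passed the adjusted p with a fold under 1.5, of which Mcpt8 and Fcer1g were higher and Cpa3 and Il1rl1 lower. An adjusted p under 0.05 at any fold was thus reached by 7 of the 10 genes, against 63.3% of all genes tested. The values of the genotypes did not overlap for 8 of the 10 genes, against 69.1% of all genes. The median log2 fold change (Tespa1-/- over Tespa1+/+) was 0.14 for the 10 genes and -0.00034 for all genes. With the same fold and an unadjusted p under 0.05, as the study used, 3 of the genes were higher (14.4% of all genes) and 1 was lower (19.9% of all genes), the addition being Fcer1a.

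**Figure D1:**
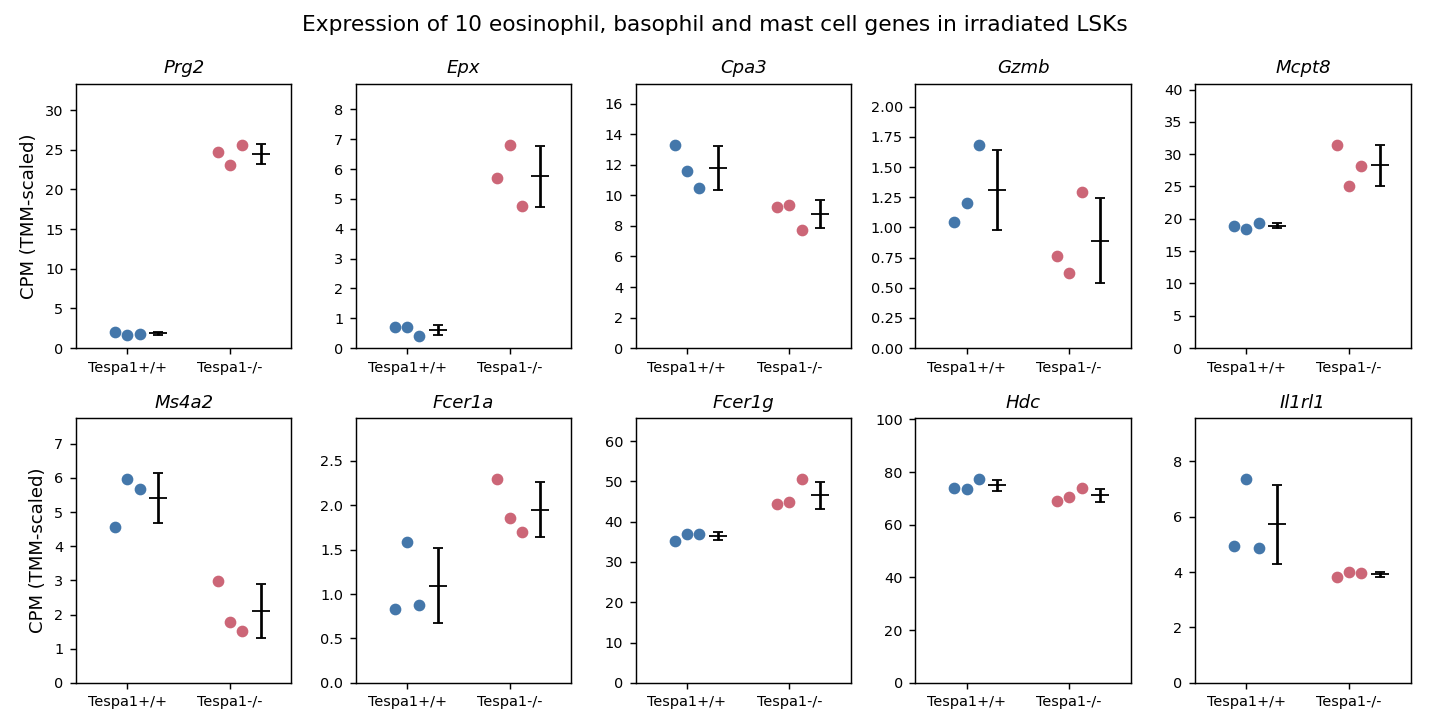
CPM (vertical axes, TMM-scaled, each starting at 0) of the 10 genes in the 3 Tespa1+/+ (blue) and 3 Tespa1-/- (red) libraries; each point is 1 library and black bars give the mean ± SD (n = 3). Prg2 and Epx stand far apart between the genotypes, Ms4a2 is lower in every Tespa1-/- library, and only Gzmb and Hdc of the 10 genes overlap.

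The eosinophil granule genes showed the largest differences of the 10 genes. Prg2 (ENSMUSG00000027073, GRCm38 chromosome 2, 84980461 to 84983632, plus strand, protein coding) encodes major basic protein, the core of the eosinophil granule. Its level was 2.09, 1.71 and 1.75 CPM in the Tespa1+/+ libraries and 24.7, 23.1 and 25.6 CPM in the Tespa1-/- libraries. Every Tespa1-/- library was thus far above every Tespa1+/+ library, and the libraries of a genotype lay close together. Prg2 rose 13.3-fold (log2 fold change 3.73, SE 0.11, edgeR adjusted p 1.0e-06). In bulk RNA, more cells of a type and more RNA per cell cannot be told apart, here and for all genes below.

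Epx (ENSMUSG00000052234, chromosome 11, 87864000 to 87875536, minus strand, protein coding) encodes eosinophil peroxidase, a granule enzyme that makes oxidants from halides. Its counts were 13, 22 and 6 in the Tespa1+/+ libraries and 97, 99 and 59 in the Tespa1-/- libraries, which are 0.716, 0.697 and 0.405 CPM and 5.69, 6.82 and 4.76 CPM. The genotypes did not overlap, although the Tespa1+/+ values rest on few counts. Epx rose 9.10-fold (log2 fold change 3.19, SE 0.23, edgeR adjusted p 2.4e-05) and was also called without the filter. Within a library, the ratio of Prg2 to Epx counts overlapped between the genotypes (2.92, 2.45 and 4.33 for Tespa1+/+, 4.34, 3.39 and 5.39 for Tespa1-/-).

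A list of 11 further eosinophil genes was read beside them, of which 6 passed the filter. The 3 that were called, all higher, were eosinophil-associated ribonucleases that passed it only through the Tespa1-/- libraries, so their number and direction carry no weight of their own. Ear2 had 4, 2 and 0 counts in Tespa1+/+ and 18, 23 and 13 counts in Tespa1-/- libraries (log2 fold change 3.63, SE 0.57, edgeR adjusted p 0.0011). Ear6 had 0 counts in all Tespa1+/+ libraries and 14, 20 and 19 in Tespa1-/- libraries, 26.0-fold higher against a floor of 3 counts over the group. Ear1 likewise had 0 counts against 14, 13 and 15, 20.6-fold higher against the same floor. The Ear genes are near-identical copies among which reads can be split, so that the share of each is uncertain. The surface genes behaved otherwise. Siglecf, the eosinophil lectin, was 15.5 ± 1.74 CPM in Tespa1+/+ and 14.3 ± 1.44 CPM in Tespa1-/- LSKs (SD, n = 3; log2 fold change -0.13, edgeR adjusted p 0.36), and Cd9, a tetraspanin, was 33.3 ± 0.457 and 34.8 ± 2.24 CPM (0.06, adjusted p 0.42). Il5ra, the receptor of the eosinophil growth factor IL-5, had 16, 21 and 6 counts in Tespa1+/+ and 5, 6 and 1 in Tespa1-/- libraries and was too low to be tested, and Prg3, the homologue of Prg2, had 9, 15 and 5 against 9, 10 and 13 counts. Ccr3, the eotaxin receptor, and Ear10 had 3 counts or fewer in every library and were not detected. The summed CPM of the list was 51.8 to 55.4 in Tespa1+/+ and 54.7 to 58.5 in Tespa1-/- libraries and was mostly Cd9 and Siglecf. The neutrophil genes given above rose in the same libraries, and their part in the Prg2 and Epx values was not tested.

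The fold changes of the granule proteases differed in sign. That of Mcpt8, the only positive one, was no larger than the median of genes as short, as given below. Mcpt8 (ENSMUSG00000022157, chromosome 14, 56082166 to 56085273, minus strand, protein coding) encodes mast cell protease 8, which in mice marks basophils in spite of its name. It was 18.9, 18.5 and 19.3 CPM in the Tespa1+/+ libraries and 31.5, 25.1 and 28.2 CPM in the Tespa1-/- libraries. All Tespa1-/- libraries lay above all Tespa1+/+ libraries, which agreed closely with each other. The difference passed the adjusted p (log2 fold change 0.58, SE 0.09, edgeR adjusted p 0.00107), but its fold lay just under 1.5. It went over 1.5, and Mcpt8 became a called gene, without the filter on low counts and when Tespa1+/+ replicate 3 (0.61), Tespa1-/- replicate 2 (0.67) or Tespa1-/- replicate 3 (0.59) was left out.

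Cpa3 (ENSMUSG00000001865, chromosome 3, 20215620 to 20242181, minus strand, protein coding) encodes carboxypeptidase A3, a protease stored in mast cell granules and present in basophils and their precursors. It was 13.3, 11.6 and 10.5 CPM in Tespa1+/+ and 9.22, 9.37 and 7.74 CPM in Tespa1-/- libraries. The genotypes did not overlap, but the gap between them was narrower than the range within each. Cpa3 was 1.34-fold lower (log2 fold change -0.42, SE 0.12, edgeR adjusted p 0.0198). This p rose to 0.0596 without Tespa1+/+ replicate 1 and to 0.0615 without Tespa1-/- replicate 3.

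Gzmb (ENSMUSG00000015437, chromosome 14, 56258838 to 56262260, minus strand, protein coding) encodes granzyme B, best known from cytotoxic lymphocytes and also made by basophils and mast cells. It had 19, 38 and 25 counts in Tespa1+/+ and 13, 9 and 16 counts in Tespa1-/- libraries, or 1.05, 1.20 and 1.69 CPM and 0.763, 0.620 and 1.29 CPM. The genotypes overlapped and the difference did not pass the test (log2 fold change -0.56, SE 0.33, edgeR adjusted p 0.172). Of 14 cytotoxic lymphocyte genes 4 were tested, of which Nkg7, a granule membrane protein that other leukocytes also make, was higher (194 ± 5.80 CPM in Tespa1+/+ and 317 ± 7.75 CPM in Tespa1-/-; SD, n = 3) and Cd8a was lower (1.97 ± 0.281 and 1.01 ± 0.116 CPM). Gzmm and Klrb1c were not called (log2 fold changes 0.20 and -0.27). Prf1, which encodes perforin, had 8 counts in each Tespa1+/+ library and 4, 1 and 0 counts in the Tespa1-/- libraries, and Gzmk and Gzmc were not detected.

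Lists of mast cell and basophil genes outside the 10 also held genes called in either direction. Of 14 mast cell granule genes 4 were tested, of which Hpgds passed the filter only through the Tespa1+/+ libraries. Srgn, the proteoglycan core of granules in many blood cells, rose from 572 ± 130 to 968 ± 218 CPM (SD, n = 3; log2 fold change 0.76, edgeR adjusted p 0.014), whereas Slc18a2, which loads histamine and serotonin into vesicles, fell from 24.1 ± 2.28 to 11.7 ± 1.47 CPM (-1.04, adjusted p 0.00018). Ndst2 and Hpgds were not called (-0.16 and -0.75). The proteases that define mature mast cells were nearly absent. Tpsb2 had 8, 7 and 2 counts, Cma1 3, 7 and 3 counts and Mcpt4 2, 13 and 0 counts in the Tespa1+/+ libraries, and all of them had 0 counts in all Tespa1-/- libraries. Against the floor over the group, Tpsb2 and Cma1 were 3.86-fold and 2.95-fold lower, on few counts, and neither was tested. Nearly all Mcpt4 counts came from Tespa1+/+ replicate 2, and its genotypes overlapped at 0. Tpsab1, Tpsg1, Mcpt1, Mcpt2, Mrgprb1, Mrgprb2 and Tph1 were not detected. Srgn made up most of the summed level of the list, 465 to 704 CPM in Tespa1+/+ and 867 to 1245 CPM in Tespa1-/- libraries.

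Of 12 basophil genes 8 were tested, 1 was called higher and 3 lower, against 14.0% and 19.2% of all genes tested. Of the 3 lower, Prss34 and Itga2 passed the filter only through the Tespa1+/+ libraries, where they were high. Their number and direction thus carry no weight of their own. Prss34, which encodes the basophil protease mMCP-11, had 41, 145 and 46 counts in Tespa1+/+ and 11, 8 and 7 counts in Tespa1-/- libraries. The genotypes did not overlap (log2 fold change -2.51, SE 0.35, edgeR adjusted p 0.00056). Cd63, a granule membrane tetraspanin not limited to basophils, was higher (73.4 ± 2.48 CPM in Tespa1+/+ and 126 ± 5.74 CPM in Tespa1-/-; SD, n = 3). The chemokine Ccl4 and the integrin Itga2 were lower (-0.68 and -0.87), whereas the cytokine receptor chains Csf2rb and Il3ra were not called (0.54 and 0.18). Il13 was not detected, and Cd200r3, a basophil surface receptor, had 5 to 13 counts in every library and was not tested. The summed level was 333 to 341 CPM in Tespa1+/+ and 404 to 449 CPM in Tespa1-/- libraries and was mostly Csf2rb, Cd63 and Il3ra.

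The subunits of the IgE receptor did not move together. Ms4a2 (ENSMUSG00000024680, chromosome 19, 11615523 to 11623719, minus strand, protein coding) encodes the beta chain, which amplifies the signal. It was 4.57, 5.95 and 5.67 CPM in the Tespa1+/+ libraries and 2.99, 1.79 and 1.53 CPM in the Tespa1-/- libraries. Every Tespa1-/- library was below every Tespa1+/+ library. Ms4a2 fell 2.51-fold (log2 fold change -1.33, SE 0.24, edgeR adjusted p 0.00244). Its window, given above, held 3 GATAA matches, and whether these are linked to its level was not tested.

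Fcer1a (ENSMUSG00000005339, chromosome 1, 173221284 to 173227214, minus strand, protein coding) encodes the alpha chain, which binds IgE. It had 15, 50 and 13 counts in Tespa1+/+ and 39, 27 and 21 counts in Tespa1-/- libraries, or 0.826, 1.58 and 0.877 CPM and 2.29, 1.86 and 1.69 CPM. The Tespa1-/- libraries were all above the Tespa1+/+ libraries, of which replicate 2 came close. The difference missed the adjusted p (log2 fold change 0.76, SE 0.29, edgeR p 0.0353, adjusted p 0.0552) and passed it without Tespa1+/+ replicate 2 (1.21, adjusted p 0.0068).

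Fcer1g (ENSMUSG00000058715, chromosome 1, 171229572 to 171234365, minus strand, protein coding) encodes the common gamma chain that carries the signalling motif. It was 35.2, 37.0 and 37.0 CPM in Tespa1+/+ and 44.3, 44.8 and 50.5 CPM in Tespa1-/- libraries. The genotypes did not overlap, but the difference was small, 1.28-fold (log2 fold change 0.35, SE 0.07, edgeR adjusted p 0.00246). Within a library, the ratio of Ms4a2 to Fcer1a counts was 5.53, 3.76 and 6.46 for Tespa1+/+ and 1.31, 0.963 and 0.905 for Tespa1-/-. The beta chain thus had several times the counts of the alpha chain in Tespa1+/+ libraries and about as many in Tespa1-/- libraries. A ratio of counts depends on the lengths of both transcripts. As FPKM, which are scaled for length, Ms4a2 had a mean of 1.24 and Fcer1a of 0.731 in Tespa1+/+, with overlapping values. In Tespa1-/- libraries these means were 0.453 and 1.21, without overlap.

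A list of further Fc and lectin receptors was also read, whose members pair with the gamma chain except for Fcgr2b. Of its 9 genes 8 were in the table and 6 were tested, with a median log2 fold change of 0.71. List medians and calls were not corrected for gene length, with which fold changes varied, as given below. Of the 6 genes, none was called lower and 4 were called higher, against 14.0% of all genes tested. These were the IgG receptors Fcgr3 (74.4 ± 2.75 CPM in Tespa1+/+, 123 ± 4.10 CPM in Tespa1-/-; log2 fold change 0.72, edgeR adjusted p 1.1e-05) and Fcgr4 (1.09), the IgG receptor Fcgr2b (0.70), which has an inhibitory tail of its own, and the lectin Clec4d (0.61). Clec4e and Fcgr1 were not called (0.41 and 0.91), and Clec4n and Gp6 were not detected. Downstream of the IgE receptor, 15 signalling genes were tested, with a median of -0.28. Of these, 3 were called lower, near the 19.2% of all genes tested, and none was called higher. Fyn, a kinase of the receptor, fell from 42.6 ± 1.35 to 20.02 ± 2.16 CPM (SD, n = 3; -1.09, adjusted p 3.0e-05), the phospholipase Plcg1 from 79.9 ± 4.95 to 42.0 ± 7.96 CPM (-0.92, adjusted p 0.00067) and the adaptor Grap2 by 1.17 on the log2 scale. Plcg2 and Vav1 passed the adjusted p with a fold under 1.5 (-0.28 and 0.10).

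Hdc (ENSMUSG00000027360, chromosome 2, 126593667 to 126619299, minus strand, protein coding) encodes histidine decarboxylase. It was 74.1, 73.6 and 77.2 CPM in Tespa1+/+ and 69.2, 70.5 and 74.0 CPM in Tespa1-/- libraries. The genotypes overlapped, and no difference passed the test (log2 fold change -0.074, SE 0.04, edgeR adjusted p 0.178). Its sign depended on the setting, as given below for gene length, and with scaling by total counts it passed the adjusted p (-0.17, adjusted p 0.0104), a scaling that moved the median of all genes by -0.10. Of 6 genes that carry, break down or sense histamine, 3 were tested and 2 were lower, against 19.2% of all genes tested. The transporter Slc22a3 fell from 74.9 ± 4.84 to 28.9 ± 3.12 CPM (SD, n = 3; -1.38, adjusted p 1.3e-05) and the receptor Hrh2 from 13.3 ± 0.291 to 8.31 ± 1.20 CPM (-0.68, adjusted p 0.0017). Hnmt, which methylates histamine, was not called (-0.31), and Hrh4 was not detected.

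Il1rl1 (ENSMUSG00000026069, chromosome 1, 40429570 to 40465415, plus strand, protein coding) encodes ST2, through which IL-33 activates mast cells and basophils. It was 4.95, 7.35 and 4.86 CPM in Tespa1+/+ and 3.82, 3.995 and 3.95 CPM in Tespa1-/- libraries. The genotypes did not overlap, and Tespa1+/+ replicate 2 lay well above the other 2 Tespa1+/+ libraries. Il1rl1 was 1.48-fold lower (log2 fold change -0.57, SE 0.19, edgeR adjusted p 0.0319). When Tespa1+/+ replicate 2 was left out, the log2 fold change was -0.32 (adjusted p 0.0710), and the adjusted p was 0.0868, 0.0723 and 0.0734 without Tespa1-/- replicates 1, 2 and 3. Without Tespa1+/+ replicate 1 or 3 its fold went over 1.5 (-0.67 and -0.66). Of 9 genes of the pathway 8 were tested and 1 was called, against 33.3% of all genes tested. This was the adaptor Myd88, which rose from 54.0 ± 4.91 to 112 ± 3.34 CPM (SD, n = 3), a log2 fold change of 1.06 (edgeR adjusted p 1.5e-05). Irak1 and Traf6 passed the adjusted p with a fold under 1.5 (-0.18 and -0.55), and Il33 was not detected.

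Apart from the ratios of counts, levels of different genes were compared as FPKM, as deposited. FPKM is the count scaled by the length of the gene and by the total of the library. In Tespa1+/+ LSKs the order of the mean FPKM was Fcer1g (23.4 ± 0.645), Mcpt8 (14.03 ± 0.303), Hdc (10.3 ± 0.272), Cpa3 (8.04 ± 0.992), Prg2 (2.29 ± 0.261), Ms4a2 (1.24 ± 0.167), Gzmb (0.944 ± 0.240), Fcer1a (0.731 ± 0.282), Il1rl1 (0.534 ± 0.131) and Epx (0.218 ± 0.0629; all SD, n = 3). Ms4a2, Gzmb, Fcer1a and Il1rl1 overlapped each with its neighbour, and the other neighbours did not. In Tespa1-/- LSKs Prg2 (28.2 ± 1.43) moved from the fifth place to the first, where it overlapped with Fcer1g (27.97 ± 2.06), and Epx (1.94 ± 0.349) moved from the last place to the sixth. Below Fcer1g the order was Mcpt8 (19.6 ± 2.19), Hdc (9.16 ± 0.318) and Cpa3 (5.58 ± 0.572), then Epx, then Fcer1a (1.21 ± 0.190), Gzmb (0.599 ± 0.237), Ms4a2 (0.453 ± 0.167) and Il1rl1 (0.342 ± 0.00859), of which the last 3 overlapped with their neighbours.

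**Figure D2:**
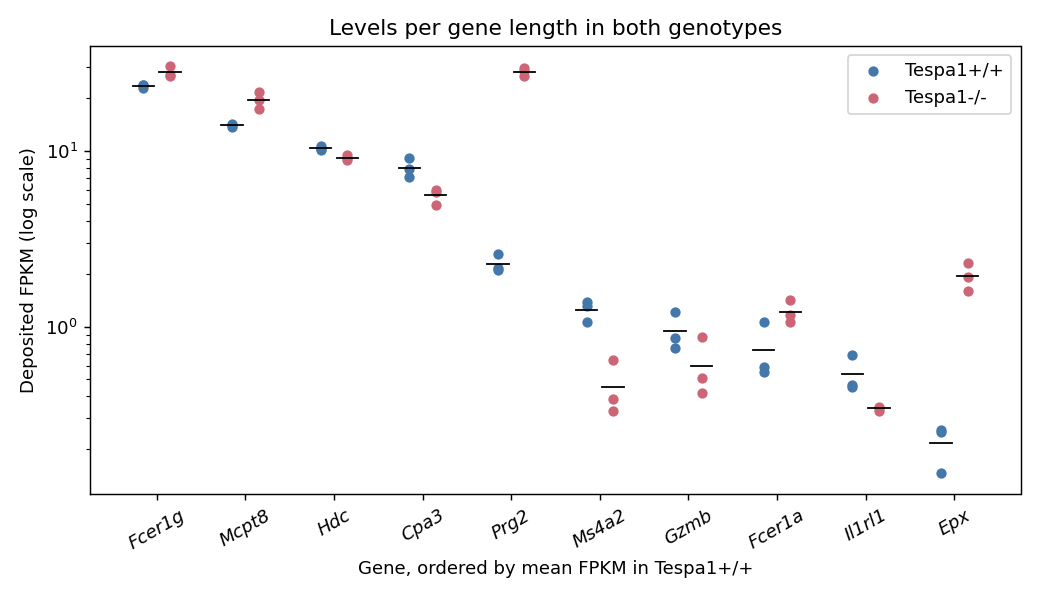
Deposited FPKM (vertical axis, log scale) of the 10 genes in the 3 Tespa1+/+ (blue) and 3 Tespa1-/- (red) libraries, ordered from left to right by the mean in Tespa1+/+; points are libraries and black lines the means. Prg2 reaches the level of Fcer1g in Tespa1-/- libraries, and Epx passes from the lowest level of the 10 to above Fcer1a, Gzmb, Ms4a2 and Il1rl1.

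Transcription factors and cytokine receptors of these lineages were read last. Of 16 factors, all tested, 6 were lower and 1 was higher, with a median log2 fold change of -0.43. Over all genes tested, 19.2% were called lower and 14.0% higher. Gata2 fell from 85.7 ± 19.1 to 45.9 ± 8.98 CPM (SD, n = 3; -0.91, edgeR adjusted p 0.0046) and Gata1, whose loss prevents eosinophil formation, from 13.9 ± 1.08 to 7.73 ± 0.903 CPM (-0.84, adjusted p 0.00054). Tal1, Stat5b, Zfpm1 and Irf8 were also lower (-0.72, -0.60, -0.69 and -0.86), Irf8 with overlapping genotypes. Cebpe, which drives the late granule genes of neutrophils and eosinophils, rose from 25.6 ± 1.28 to 71.1 ± 1.40 CPM (1.47, adjusted p 1.7e-06). Prg2 and Epx thus rose in libraries in which Gata1 was lower and Cebpe higher, and whether the levels are linked was not tested. Cebpa passed the adjusted p with a fold under 1.5 (0.33), and Lmo2 was not called (-0.10). Of 10 cytokine and receptor genes 7 were tested, and Kit (-0.97), the IL-25 receptor Il17rb (-1.54) and Il7r (-1.75) were lower while Tslp (0.89) was higher. Il4ra passed the adjusted p with a fold under 1.5 (0.44), Csf2ra was not called (0.13), and Il5 and Il3 were not detected.

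Markers of other cells that a sort can hold, and of the LSK gate, were read in the same way. Their calls stand against 14.0% called higher and 19.2% called lower over all genes tested. Of 8 monocyte and macrophage genes, all tested, Ly6c2 and Cd14 were higher (0.88 and 0.68) and Csf1r and Cx3cr1 were among 3 that were lower (-0.65 and -1.44), with a summed level of 562 to 602 CPM in Tespa1+/+ and 703 to 793 CPM in Tespa1-/- libraries. Of 12 erythroid and megakaryocyte genes 11 were tested, 2 were higher and 6 lower, such as Car2 (-1.31) and Vwf (-2.32), with sums of 240 to 244 CPM in Tespa1+/+ and 141 to 151 CPM in Tespa1-/- libraries. Of 7 plasma and B cell genes 6 were tested, of which Jchain was higher (1.18) and 3, among them Sdc1 and Cd79a, were lower (-0.89 and -0.77), with sums of 80.5 to 108 CPM and 129 to 137 CPM. Of 8 LSK markers 6 were lower and none higher, including Cd34 (-0.77), Flt3 (-1.01) and Mecom (-1.67), and the sum was 1230 to 1273 CPM in Tespa1+/+ but 717 to 736 CPM in Tespa1-/- libraries. The part of these cells in the values of the 10 genes was not tested.

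**Figure D3:**
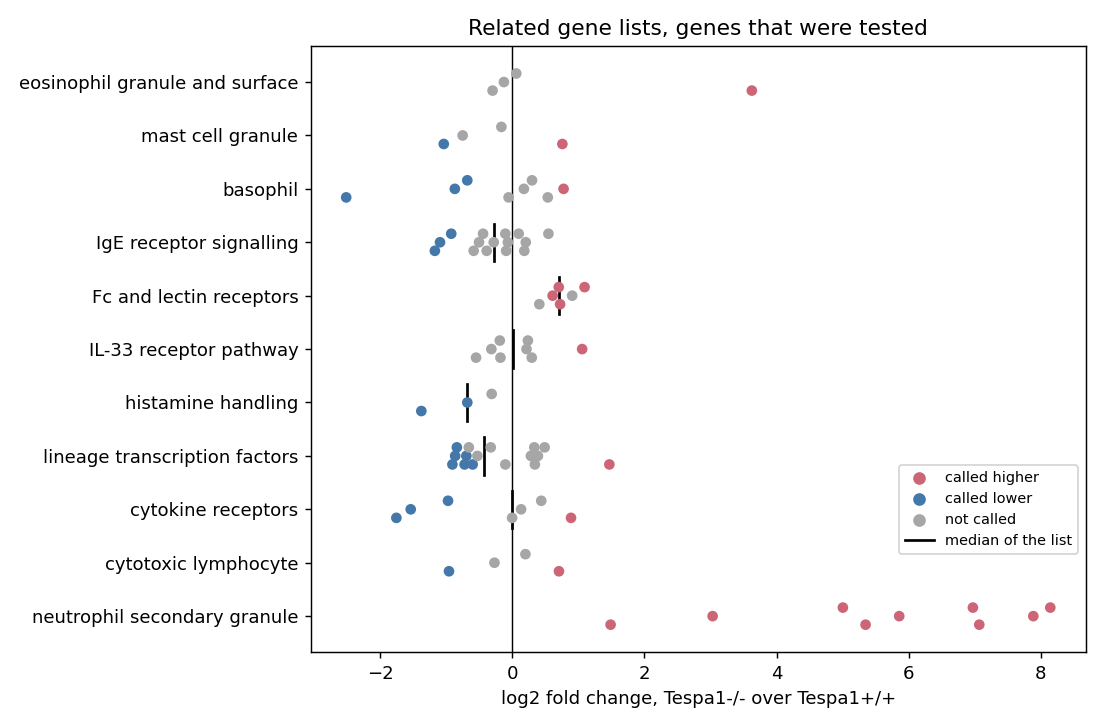
Log2 fold change (horizontal axis, Tespa1-/- over Tespa1+/+) of the tested genes of each related list; red points were called higher, blue points lower and grey points neither, and black lines are medians, drawn only for lists whose tested genes all passed the filter in both genotypes. Ear1 and Ear6, at 0 counts in Tespa1+/+, are not drawn. Ear2 lies on the right while the eosinophil surface genes lie near 0. The genes of the list labelled neutrophil secondary granule, which also holds S100a8 and S100a9, lie on the right.

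The fold change of a gene was related to its length in these libraries. Spearman's rho of the log2 fold change with the union exon length was -0.62 across the 10033 genes whose mean log2 CPM exceeded 3, which describes genes and not replicates. The median log2 fold change of genes as long as Prg2, Fcer1g, Mcpt8 and Fcer1a, all among the shorter of the 10, was 0.59 to 0.61, and for genes as long as Hdc and Il1rl1, the longest, it was -0.19 and -0.21. A correction for this relation, fitted in each library, brought rho to -0.083. Prg2, Epx and Ms4a2 kept their calls with it (3.29, 3.08 and -1.43, edgeR adjusted p 2.1e-06, 4.8e-05 and 0.0021). The other values shifted more. Mcpt8 came to 0.19 (adjusted p 0.0946), Fcer1a to 0.37 (adjusted p 0.328), Fcer1g to -0.074 (adjusted p 0.409) and Il1rl1 to -0.28 (adjusted p 0.248), none past the threshold, whereas Cpa3 came to -0.69 (adjusted p 0.00242) and was called lower. Gzmb came to -0.84 (adjusted p 0.0618), and Hdc turned to 0.18 (adjusted p 0.0102). The differences of Mcpt8 and Fcer1g were no larger than the median of genes as short as they are, which were 0.59 and 0.60. The calls and medians of the related lists were given without the correction. With it, 25 of the 118 further listed genes tested were called higher and 32 lower, against 27 and 36 as reported. What lies behind the relation with length was not tested.

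**Figure D4:**
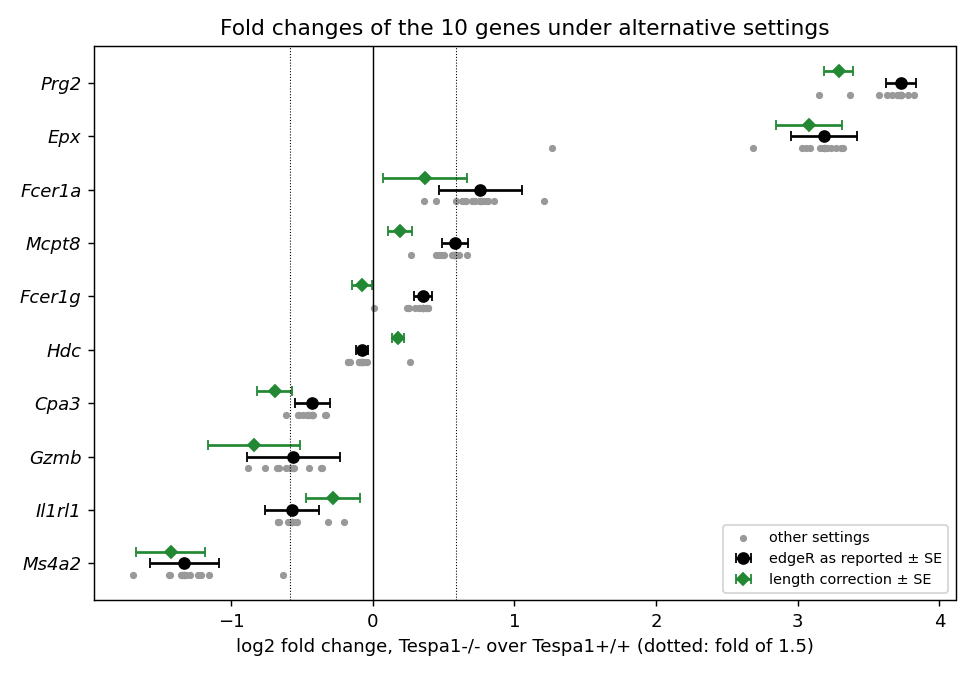
Log2 fold change (horizontal axis, Tespa1-/- over Tespa1+/+) of the 10 genes as reported (black, ± SE), with the length correction (green, ± SE) and under the other settings (grey); dotted lines mark a fold of 1.5 in either direction. Prg2 and Epx stay on the right and Ms4a2 on the left of both dotted lines under all settings shown, whereas Fcer1g and Hdc change sides of 0.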

How the data were processed

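RNA sequencing of 3 Tespa1+/+ and 3 Tespa1-/- libraries of LSKs from irradiated mice was analysed, with groups and replicate numbers from the sample titles. Cells were depleted of lineage-positive cells and sorted. Per the labels, poly-A RNA was made into stranded paired-end libraries. The submitters' processing notes name CASAVA 1.8, HISAT2, StringTie, edgeR and GRCm38. Their roles and the strand setting of the counting were not given in the sources used here. The authors deposited raw counts and FPKM values for 55487 genes, and positions are those of GENCODE M21 (GRCm38), in which 54870 genes had identical coordinates. No exon of the 10 genes was shared with another annotated gene.

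Counts were filtered with filterByExpr, scaled with TMM and fitted with edgeR 4.0.16 (quasi-likelihood, all 6 samples, no covariates) in R 4.3.3. The SE of a log2 fold change was its size over the square root of F. A count of 0 allows up to 3 counts (0.0950 to 0.242 CPM per library), which covers counting error only. Folds against this floor leave out the error of the other group and the spread between libraries. The 10 genes, the 15 lists of 160 further genes and the tests were chosen with earlier results of these data known. Named genes were the 10, Tespa1 and, from each list, up to 4 called and 2 uncalled genes with the highest mean CPM and those at 3 counts or fewer in every library. Outside this rule, Prg3, Il5ra, Cd200r3, Prf1, Tpsb2, Cma1, Mcpt4, Cd3e, Ly6g, Gata1, Zfpm1, Cebpe and Mecom were named after their values were seen.

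The 18 other settings were RLE factors, total counts, no filter, a filter of at least 10 counts in each sample, glmTreat, a stricter adjusted p (0.01), a replicate block, DESeq2 1.42.0, limma-trend (limma 3.58.1) on log2(FPKM + 1) and log2(FPKM + 0.1) where 3 samples or more reached an FPKM of 1, a length correction (loess of each library's deviation on log2 union exon length, span 0.5, centred), the same without centring, added after seeing the data, and leaving out each of the 6 libraries. On simulated counts edgeR recovered 99.5% of 200 changed genes with 4 false calls among 15124 genes. When a trend with gene length was simulated too, as these data show one, 2105 false calls were made among 15387 genes, and 4 with the length correction. The simulated trend was a straight line in log2 length, which the correction can remove by its form. Replicate libraries differed by more than sampling noise (chi-square per degree of freedom 7.29 to 9.46).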

Additional observations from a re-analysis of the deposited data

How the results depend on the processing

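Of 174 log2 fold changes of the 10 genes under the other settings, 150 kept their direction and their side of the threshold, 17 lost the threshold, 4 passed it and 3 changed sign. Prg2 (3.15 to 3.82), Epx (1.26 to 3.32) and Ms4a2 (-1.69 to -0.63) kept both wherever a value could be had. The sign changed for Fcer1g with the length correction (-0.074) and for Hdc with the length correction (0.18) and without its centring (0.26); the correction subtracts from each library the trend of its counts with length. Among the 10 genes, 1 was called higher (Prg2, since Epx no longer entered) and 2 lower with at least 10 counts in every sample; 2 were lower with total counts (Ms4a2 and Il1rl1) and with the length correction, centred or not (Ms4a2 and Cpa3). Leaving out 1 library gave 2 to 3 higher and 1 to 2 lower; the replicate block gave 2 and 1. Il1rl1 missed the threshold with DESeq2 (adjusted p 0.0771).

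Over all genes, 2148 were higher and 2951 lower; glmTreat gave 1020 and 1807, limma-trend on log2(FPKM + 1) 1070 and 1626, log2(FPKM + 0.1) 1365 higher and the length correction 1267 higher. The share of calls that were higher was 42.1% as reported, 29.8% with total counts and 34.9% with the length correction, and these scalings moved the median of all genes by -0.10 and 0.03. Among 118 further listed genes tested, 27 were higher and 36 lower, and 26 to 29 and 32 to 39 when 1 library was left out. Same-numbered libraries correlated at 0.0459, 0.0107 and 0.0595, so the numbers were not taken as pairs, although every library correlated best with its own number; with the replicate block 28 and 35 listed genes and 2101 and 2871 of all genes were called. The genes with few counts (Epx and Fcer1a in Tespa1+/+, Gzmb in both) are limited by depth.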

Other observations

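Ratios of counts within a library do not depend on the scaling between libraries. Mcpt8 over Cpa3 was 1.42, 1.59 and 1.85 for Tespa1+/+ and 3.41, 2.68 and 3.65 for Tespa1-/-. Mcpt8 over Prss34, the basophil proteases, was 8.39, 4.03 and 6.22 for Tespa1+/+ and 48.7, 45.5 and 50 for Tespa1-/-. Prg2 over Mcpt8 was 0.1105, 0.0925 and 0.0909 for Tespa1+/+ and 0.785, 0.923 and 0.909 for Tespa1-/-. None of these ratios overlapped between the genotypes, while Fcer1g over Fcer1a did. These pairs were chosen with results known and were not tested. Prss34 passed the filter only through the Tespa1+/+ libraries, so its ratio carries no weight of its own.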
